A study of Mus musculus with 16 samples.

Results

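The mitochondrially encoded genes are the 37 genes that the GENCODE annotation places on the mouse mitochondrial chromosome. They were chosen by that annotation, with earlier results of these data known. They are 13 mRNAs, 22 tRNAs and 2 rRNAs out of 51912 genes listed for each library. Counts came from UMI RNA-seq, in which a random tag on each cDNA molecule lets PCR copies be counted once, of micro-dissected cerebral cortex on embryonic day 15.5. The ctrl group was 7 mice, of which 5 were Knl1 wild type and 2, T4 and T5, were Knl1 heterozygous. In the 4 cKO mice hGFAP-Cre, a transgene that recombines floxed alleles in cortical neural progenitors, deleted Knl1 (labelled Casc5), a kinetochore gene. In the 4 dKO mice the same Cre deleted both Knl1 and Trp53, which encodes p53. Values of single ctrl mice are given in the order 2 and 6 (litter 1), S1 and S3 (litter 2), then T3, T4 and T5 (litter 3). The cKO mice were 5 and 7 (litter 1), S2 (litter 2) and F3 (litter 4), and the dKO mice T2 and T8 (litter 3) and F1 and F7 (litter 4). The tissue also held cells that hGFAP-Cre does not recombine, and the labels do not give the Cre or Trp53 state of the ctrl mice.

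Mitochondria keep a small circular genome. Its mRNAs encode core subunits of 4 of the complexes that carry out oxidative phosphorylation, namely complexes I, III, IV and V, while complex II and all remaining subunits are encoded in the nucleus. The rRNAs and tRNAs serve the mitochondrial ribosome. Nearly the whole of each strand is transcribed as a long precursor, from which the tRNAs are cut out so that the mRNAs and rRNAs between them are released. Copies of mitochondrial DNA are also found in the nuclear chromosomes, and reads from such a copy and from the mitochondrial gene can be alike.

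Only 20 of the 37 genes had a count in any mouse. Of the 13 mRNAs, 7 were counted and 6 were listed at 0 in every library, namely mt-Co2, mt-Atp8, mt-Atp6, mt-Co3, mt-Nd3 and mt-Nd4l. These 6 genes are neighbors and cover the stretch of mitochondrial DNA from base 7013 to base 10173. A total of 978891 counts fell on the mitochondrial genes in the 15 mice, of which 796255 were on the 2 rRNAs, 182447 on the mRNAs and 189 on the tRNAs. For the genes at 0, a count of 0 allows up to 0.0695 CPM (counts scaled to a common library total) over all mice, or from 0.341 CPM in cKO mouse S2 to 7.50 CPM in ctrl mouse T3 for a single mouse. These limits take 3 counts as the floor and cover counting error only.

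Of the 6 mRNAs without counts, 5 have a near-identical copy among the annotated nuclear transcripts, so the sequences are shown here beside it. On chromosome 1 of GRCm38, 7 genes annotated as unprocessed pseudogenes lie in a row between bases 24611535 and 24616197 on the minus strand. They follow the order of the mitochondrial genes over bases 6390 to 11042, with 99.7% to 100% identity. The first 60 bases of mt-Co2 (chrM:7013-7072, plus strand) and of Gm28661 (chr1:24615506-24615565, minus strand) had no difference, and those of mt-Nd3 (chrM:9459-9518) and Gm28438 (chr1:24613060-24613119) had 1, which is in capitals. Sequences are from the GENCODE M21 transcripts.
mt-Co2: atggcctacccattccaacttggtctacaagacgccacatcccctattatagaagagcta
Gm28661: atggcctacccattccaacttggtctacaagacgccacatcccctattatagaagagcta
mt-Nd3: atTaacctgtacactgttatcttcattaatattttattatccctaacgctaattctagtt
Gm28438: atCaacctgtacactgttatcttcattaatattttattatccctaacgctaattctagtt

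Other copies were less alike. Among them, Gm13341 on chromosome 2 matches mt-Co2 at 95.9% identity and Gm43743 on chromosome 3 part of mt-Atp6 at 94.8%. Neither mt-Co2 nor mt-Atp6 had a count. The other less alike copies match mitochondrial genes that were counted. Those of mt-Co1 on chromosome 2 (Gm13340) and of mt-Cytb on chromosome 4 (Gm11410) were 97.6% and 92.9% identical over their aligned length. They are shown against the start of mt-Co1 (chrM:5328-5387 and chr2:22589588-22589647, minus strand) and of mt-Cytb (chrM:14146-14205 and chr4:80003990-80004049, plus strand), again with the differing bases in capitals.
mt-Co1: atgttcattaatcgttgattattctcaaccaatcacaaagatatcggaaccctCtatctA
Gm13340: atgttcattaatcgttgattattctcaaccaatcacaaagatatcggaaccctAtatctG
mt-Cytb: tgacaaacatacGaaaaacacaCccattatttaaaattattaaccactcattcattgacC
Gm11410: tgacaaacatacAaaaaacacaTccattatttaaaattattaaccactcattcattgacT

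To measure how much of each gene is shared with nuclear transcripts, every stretch of 50 bases was looked up among the annotated ones. All such windows of mt-Co2 were found in a nuclear transcript, as were 99.5% of those of mt-Atp6, 99.9% of mt-Co3, 97.99% of mt-Nd3 and 98.8% of mt-Nd4l. The values were 62.2% for mt-Nd4 and 51.1% for mt-Co1, which lie at the edges of the stretch copied on chromosome 1. The chromosome 1 copy covers 31.3% of mt-Co1, and Gm13340 on chromosome 2 matches mt-Co1 along its whole length. Shared windows made up 8.19% of those of mt-Nd2, 7.61% of mt-Nd5 and 1.04% of mt-Rnr2. No window of mt-Nd1, mt-Nd6, mt-Cytb or mt-Rnr1 was shared. mt-Atp8, which encodes a small subunit of complex V, had no shared window although it had no count. No annotated nuclear transcript matched it at 90% identity over 100 bases or more, although its place lies between those of mt-Co2 and mt-Atp6. Only annotated transcripts were searched. The chromosome 1 sequence between the copies of mt-Co2 and mt-Atp6 was therefore not compared with mt-Atp8. Within the mitochondrial stretch that the chromosome 1 genes follow there are 11 whole genes, 6 mRNAs and 5 tRNAs, and none had a count. The 7 genes on chromosome 1 had 8 counts in all 15 mice. Alignments marked as not unique made up 14.2% to 29.3% of all entries (counts and summary lines) listed for a mouse, and they are not split by gene. How often a read with several alignments was entered was not given in the sources used here, so this need not be a share of reads. The part of such reads in the missing counts was not tested.

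**Figure D1:**
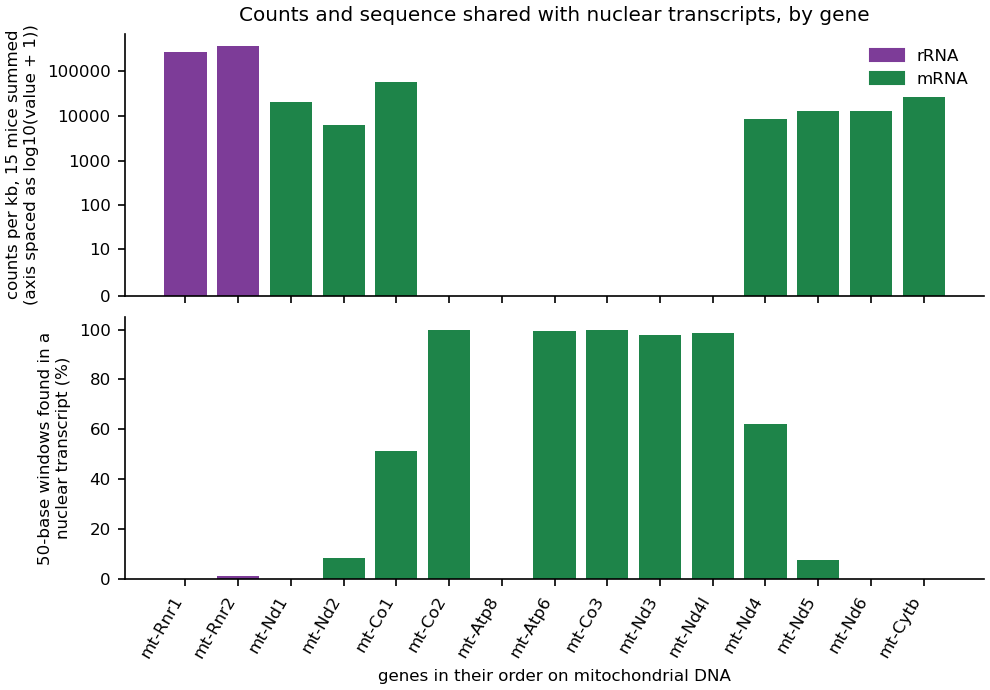
Mitochondrial rRNAs and mRNAs in their order on the chromosome. Bars show counts per kb of annotated length summed over 15 mice (top, axis spaced as log10(value + 1)) and the percent of 50-base windows found in an annotated nuclear transcript (bottom); 6 neighboring mRNAs from mt-Co2 to mt-Nd4l have no count, and 5 of these 6 have 97.99% to 100% of their windows in a nuclear transcript.

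The depth differed between mice. Totals were 399832 to 3266227 counts in ctrl, 4178461 to 8800987 in cKO and 552186 to 5396803 in dKO, and all cKO totals were above all ctrl totals. Mice came from 4 litters and 3 batches as labelled, and all dKO mice were in batch 3. The 3 mice of litter 4, cKO mouse F3 and dKO mice F1 and F7, stood apart in RNA of ribosomal genes. Nuclear genes annotated as rRNA were at 96.4, 293.2 and 458.4 CPM in F3, F1 and F7 and at 0 to 11.98 CPM in the other 12 mice. There was no ctrl mouse in litter 4, so within it cKO and dKO cannot be set against ctrl. Knl1 itself was at 48.7 to 80.0 CPM in ctrl, up to 80.4 in cKO and 33.4 to 58.2 in dKO, and Trp53 at 15.6 to 47.0, 24.0 to 33.3 and 19.8 to 32.3 CPM. These ranges overlap, so whole-gene counts of bulk cortex did not separate the genotypes. Markers of cortical excitatory neurons summed to 1530 to 2222 CPM in all mice, and those of microglia to 6.52 to 21.6 CPM. Markers of cortical progenitors summed to 134 to 230 CPM in ctrl, 81.1 to 154 in cKO and 122 to 195 in dKO, with Sox2 at 0 in each group. The study stained SOX2 protein in progenitors of such cortex, so this 0 cannot be read as absence of expression. The sums rest on the other listed markers, and why Sox2 had no count was not tested.

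The 7 counted mitochondrial mRNAs together took from 0.337% to 0.659% of all counts in a mouse. The 6 mRNAs listed at 0 add nothing to this share, so it can lie below the share of all 13 in the tissue. The share was 0.415% ± 0.0655 in ctrl (SD, n = 7), 0.452% ± 0.138 in cKO (n = 4) and 0.405% ± 0.0675 in dKO (n = 4). In the ctrl mice it was 0.337%, 0.338%, 0.393%, 0.417%, 0.505%, 0.485% and 0.430%. In cKO mice 5, 7, S2 and F3 it was 0.387%, 0.374%, 0.388% and 0.659%. In dKO mice T2, T8, F1 and F7 it was 0.345%, 0.491%, 0.358% and 0.426%. The groups overlapped, and F3 alone was above every ctrl mouse. For T3, the mouse with the fewest counts, the 95% Wilson interval was 0.484% to 0.528%, which holds the values of T4 and T8, so gaps of this size are within counting error. That of F3 was 0.652% to 0.666%.

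None of the share differences between groups was larger than the spread between mice. The difference was 0.0369 percentage points for cKO versus ctrl (exact permutation over mice, two-sided, p = 0.594), −0.00990 for dKO versus ctrl (exact p = 0.852) and 0.0468 for cKO versus dKO (exact p = 0.686). The smallest p these designs allow is 0.00303 for 4 against 7 mice and 0.0286 for 4 against 4. With the shares of the rRNAs and the ratio between them, 9 such tests were made, and the smallest Benjamini-Hochberg adjusted value was 0.907. Within batch 1 the cKO minus ctrl difference was 0.0189 points (3 against 3, exact p = 0.40, where 0.10 is the smallest possible), and within batch 3 the dKO minus ctrl difference was −0.0683 (4 against 3, exact p = 0.171). Without litter 4 the 3 differences were −0.0322, 0.00334 and −0.0355 points, so each changed its sign. The permutation over all mice did not take litters into account. The cKO minus ctrl difference was 0.0427 points within litter 1 (2 against 2) and −0.0171 within litter 2 (1 against 2). Within litter 3 the dKO minus ctrl difference was −0.05505 (2 against 3), and within litter 4 the cKO minus dKO difference was 0.267 (1 against 2). In the edgeR fit of cKO versus dKO, 4 complex I mRNAs (mt-Nd1, mt-Nd2, mt-Nd4 and mt-Nd5) passed with litter as a covariate, and that fit compares F3 with F1 and F7, since litter 4 is the only one with both groups.

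**Figure D2:**
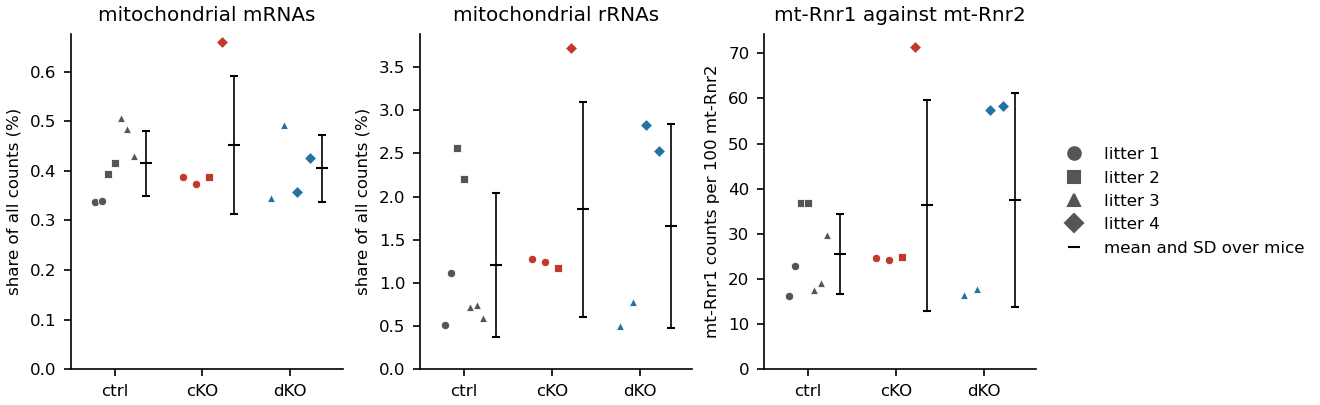
Share of all counts in the mitochondrial mRNAs and rRNAs (percent) and mt-Rnr1 counts per 100 mt-Rnr2 counts, for each of 15 mice by group; symbols mark litters and the black marks show mean and SD over mice. The mRNA share of F3 is 0.659%, the rRNA share is 2.53% to 3.72% in litter 4 and 2.57% in ctrl mouse S1, and the ratio is highest in litter 4.

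Of the mitochondrial genes, 0 passed an FDR of 0.05 in any comparison by edgeR's likelihood ratio test. Of the 20 with a count, 3 in each comparison had an unadjusted p under 0.05. Of all genes, 27394 had a count in any mouse. Such a p was found for 2441 in cKO versus ctrl, 1726 in dKO versus ctrl and 2161 in cKO versus dKO. The share was thus higher in the members, which are few and not independent of each other. The 27394 genes were not matched to the members by their counts. Among the 3 were mt-Tm in dKO versus ctrl, with 69 counts in all mice, and in cKO versus dKO a tRNA with only 2 counts in all mice. Over all 51912 genes, 83 (0.16%) passed in cKO versus ctrl, 26 (0.0501%) in dKO versus ctrl and 27 (0.052%) in cKO versus dKO. The members' count of 0 is thus what so low a background gives. Of the 83, 30 were higher and 53 lower, or 36.1% higher, and with RLE size factors in place of TMM the share that was higher was 23.96%. The quasi-likelihood test of edgeR called 4, 2 and 0 mitochondrial genes, and DESeq2 called 0 in each comparison but gave no adjusted p for mt-Nd4 in cKO versus ctrl or mt-Nd2 in dKO versus ctrl. On genes passing edgeR's filter on low counts, the quasi-likelihood test called 0 in each. The median log2 fold change of the 7 counted mRNAs was 0.30 in cKO versus ctrl, 0.09 in dKO versus ctrl and 0.35 in cKO versus dKO. Without F3 the first of these was −0.10 and the last −0.16, and without litter 4 the dKO versus ctrl median was −0.15. With litter as a covariate the median was 0.06 in cKO versus ctrl and −0.22 in dKO versus ctrl. For the 9169 nuclear genes above 10 CPM the medians were 0.04, 0.01 and 0.06. The comparisons share their ctrl mice or their cKO or dKO mice and are not independent. A bulk tissue cannot tell fewer cells of a type from less RNA in each cell.

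**Figure D3:**
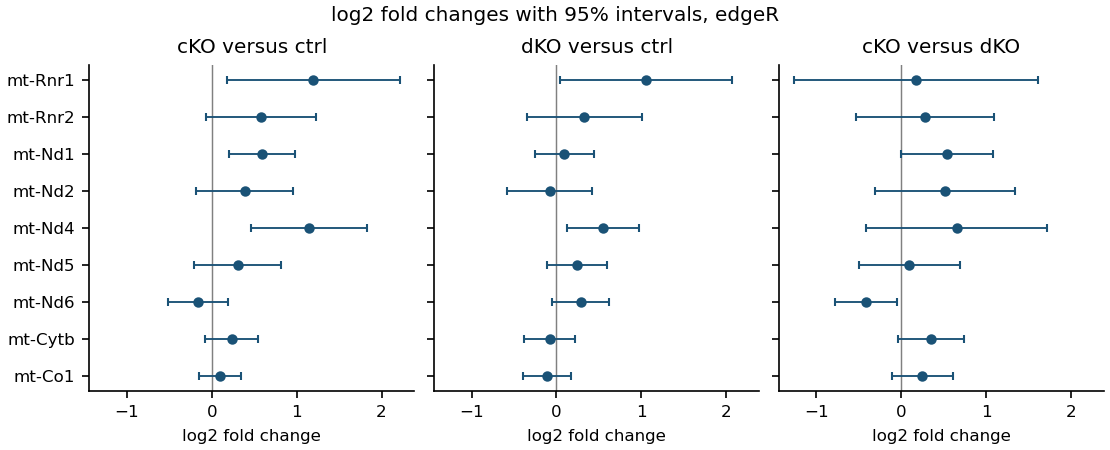
Log2 fold change of the 2 rRNAs and the 7 counted mRNAs in the 3 comparisons, with 95% intervals from the edgeR fit. The mRNA values run from −0.16 to 1.15 in cKO versus ctrl and from −0.11 to 0.55 in dKO versus ctrl, and no gene passes an FDR of 0.05.

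The 7 complex I genes of the mitochondrial genome encode membrane subunits of NADH dehydrogenase, the entry point of electrons from NADH. mt-Nd1 (bases 2751 to 3707, plus strand) was at 222, 362, 384, 430, 444, 380 and 298 CPM in the ctrl mice. It was at 458, 415, 414 and 911 CPM in cKO mice 5, 7, S2 and F3 and at 219, 347, 452 and 501 CPM in dKO mice T2, T8, F1 and F7. The groups overlapped, and F3 stood far above all other mice. The log2 fold change of mt-Nd1 was 0.59 (SE 0.20, edgeR FDR = 0.340) in cKO versus ctrl, 0.09 (SE 0.18, FDR = 1) in dKO versus ctrl and 0.54 (SE 0.27, FDR = 1) in cKO versus dKO. Without F3 the cKO versus ctrl value of mt-Nd1 was 0.23, and without S2 it was 0.71 with an FDR of 0.0421.

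mt-Nd2 (bases 3914 to 4951), next to mt-Nd1 on the same strand, had the lowest mean level per annotated length of the counted mRNAs over all 15 mice (142 CPM per kb). In ctrl alone mt-Nd4 was lower on that scale (115 against 133 CPM per kb). The order in ctrl turned when only windows that no nuclear transcript shares were taken as length, a choice made after seeing the data. mt-Nd4 was then at 315 and mt-Nd2 at 152 CPM per kb. mt-Nd2 ranged from 65.5 to 193 CPM in ctrl, with a median of 138. In cKO mice 5, 7, S2 and F3 it was at 144, 107, 94.5 and 383 CPM, and in dKO mice T2, T8, F1 and F7 at 36.5, 153, 141 and 178 CPM. The T2 value rests on 22 counts. For mt-Nd2 the log2 fold change was 0.39 (SE 0.29) in cKO versus ctrl, −0.08 (SE 0.25) in dKO versus ctrl and 0.52 (SE 0.42) in cKO versus dKO, with an edgeR FDR of 1 in each. Without F3 the cKO versus ctrl value was −0.27.

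mt-Nd4 (bases 10167 to 11544) had the widest spread of the mRNAs, and its high values were those of litter 4. In the ctrl mice it was at 139, 148, 157, 155, 152, 195 and 162 CPM. In cKO mice 5, 7, S2 and F3 it was at 182, 142, 125 and 966 CPM, and in dKO mice T2, T8, F1 and F7 at 86.2, 164, 290 and 366 CPM. All 3 litter 4 mice were above every other mouse, and the remaining cKO and dKO mice were not above the highest ctrl mouse. In log2 units, mt-Nd4 differed by 1.15 (SE 0.35, edgeR FDR = 0.189) in cKO versus ctrl, 0.55 (SE 0.21, FDR = 1) in dKO versus ctrl and 0.65 (SE 0.54, FDR = 1) in cKO versus dKO. With litter 4 left out these were −0.10, −0.29 and 0.20, each with an FDR of 1. Calls appeared when a mouse low in mt-Nd4 was left out: 1.43 (FDR = 0.00171) without S2 and 1.42 (FDR = 0.0337) without mouse 7 in cKO versus ctrl, and 0.80 (FDR = 0.00643) without T2 in dKO versus ctrl. The first 876 of the 1378 bases of mt-Nd4 are identical to Gm28439 on chromosome 1, which had no count. mt-Nd4 also overlaps mt-Nd4l at its start.

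mt-Nd5 (bases 11742 to 13565) encodes the largest of these subunits. In ctrl it ranged from 232 to 645 CPM, with a median of 540. It was at 443, 368, 425 and 1207 CPM in cKO mice 5, 7, S2 and F3 and at 461, 608, 611 and 627 CPM in dKO mice T2, T8, F1 and F7. Apart from F3, all values lay within the range of ctrl. The fitted log2 change of mt-Nd5 was 0.30 (SE 0.26) in cKO versus ctrl, 0.24 (SE 0.18) in dKO versus ctrl and 0.10 (SE 0.30) in cKO versus dKO, with an edgeR FDR of 1 in each. Without F3 the cKO versus ctrl value was −0.26.

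mt-Nd6 (bases 13552 to 14070, minus strand) is the only mRNA on the opposite strand, and it differed from the others in which mice were high. In the ctrl mice it was at 149, 150, 122, 111, 224, 225 and 180 CPM. In cKO mice 5, 7, S2 and F3 it was at 131, 119, 136 and 204 CPM, and in dKO mice T2, T8, F1 and F7 at 244, 210, 190 and 158 CPM. The 3 ctrl mice of batch 3 (210 ± 25.7 CPM, SD, n = 3) were all above the 3 of batch 1 (137 ± 22.3 CPM), and the 3 cKO mice of batch 1 were at 119 to 136 CPM. Its log2 fold change was −0.16 (SE 0.18) in cKO versus ctrl and 0.29 (SE 0.17) in dKO versus ctrl, both with an edgeR FDR of 1. In cKO versus dKO it was −0.41 (SE 0.19, FDR = 1). With litter 4 left out the last value was −0.82 with an FDR of 0.00147, and the 3 cKO mice were then all of batch 1 and the 2 dKO mice of batch 3, so that group and batch cannot be told apart. The strand setting of the counting was not given in the sources used here, and without it reads of mt-Nd6 and of the transcript opposite to it cannot be told apart. mt-Nd6 also overlaps the end of mt-Nd5.

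The other pair of complex I genes, mt-Nd3 (bases 9459 to 9806) and mt-Nd4l (bases 9877 to 10173), had no count in any mouse, as described above.

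Complex III passes electrons to cytochrome c, and mt-Cytb (bases 14145 to 15288) encodes its cytochrome b. In the ctrl mice it was at 514, 577, 682, 815, 787, 767 and 589 CPM. It was at 729, 687, 678 and 1128 CPM in cKO mice 5, 7, S2 and F3 and at 466, 740, 612 and 726 CPM in dKO mice T2, T8, F1 and F7. The groups overlapped, with F3 above all others. On the log2 scale mt-Cytb differed by 0.24 (SE 0.16) in cKO versus ctrl, −0.08 (SE 0.15) in dKO versus ctrl and 0.35 (SE 0.20) in cKO versus dKO, with an edgeR FDR of 1 in each. Without F3 the cKO versus ctrl value of mt-Cytb was 0.03. Its copy on chromosome 4, shown above, shared no window of 50 bases with it and had 5 counts in all mice.

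Complex IV reduces oxygen, and mt-Co1, mt-Co2 and mt-Co3 encode its catalytic core. mt-Co1 (bases 5328 to 6872) was the most abundant mRNA in every mouse and the least variable, with a coefficient of variation of 14.5% over 15 mice. It was at 1932, 1765, 1885, 1917, 2285, 2255 and 2194 CPM in the ctrl mice. In cKO mice 5, 7, S2 and F3 it was at 2083, 2064, 2010 and 2631 CPM, and in dKO mice T2, T8, F1 and F7 at 1649, 2425, 1506 and 1902 CPM. The ctrl mice of batch 3 (2245 ± 46.5 CPM, n = 3) were all above those of batch 1 (1871 ± 92.4 CPM, n = 3), a gap wider than those between the group means. Its log2 fold change was 0.10 (95% interval −0.15 to 0.35) in cKO versus ctrl, −0.11 (−0.39 to 0.17) in dKO versus ctrl and 0.25 (−0.11 to 0.61) in cKO versus dKO, with an edgeR FDR of 1 in each. Without F3 the cKO versus ctrl value of mt-Co1 was 0.00. mt-Co2 (bases 7013 to 7696) and mt-Co3 (bases 8607 to 9390) had no count.

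Complex V is the ATP synthase. Its mitochondrially encoded subunits, mt-Atp8 (bases 7766 to 7969) and mt-Atp6 (bases 7927 to 8607), overlap each other and had no count, so no mitochondrially encoded part of complex V was measured here.

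**Figure D4:**
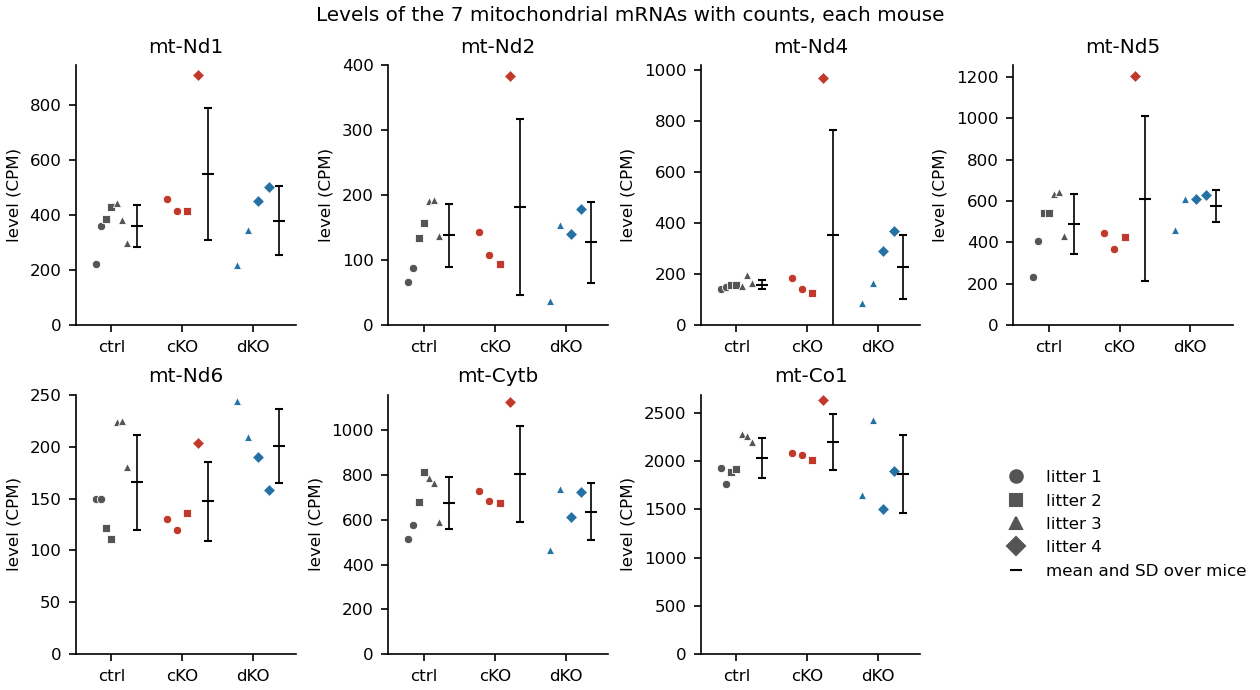
Level (CPM) of each of the 7 counted mitochondrial mRNAs in 15 mice by group, with litters as symbols and mean and SD as black marks; the lower SD bar of mt-Nd4 in cKO runs past 0 and ends at the axis. F3 (red, litter 4) is the highest mouse in 6 of the 7 panels, from mt-Nd2 at 383 CPM to mt-Co1 at 2631 CPM, and mt-Nd6 is the exception.

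Per kb of annotated length and over all 15 mice, mt-Co1 was at 1316 ± 191 CPM (SD), mt-Cytb at 612 ± 136, mt-Nd1 at 434 ± 167, mt-Nd6 at 328 ± 84.1, mt-Nd5 at 299 ± 119, mt-Nd4 at 166 ± 156 and mt-Nd2 at 142 ± 76.3. From mt-Cytb down, the range of mean ± SD of each gene overlapped that of its neighbor in this order. All genes were measured in the same mice, so this overlap does not show whether neighbors differed. Per kb, mt-Cytb was above mt-Nd1 in every mouse, also in F3 (986 against 952 CPM per kb). No test within mice was made. When only the windows that no nuclear transcript shares were taken as length, a choice made after seeing the data, mt-Co1 was at 2782 ± 403 CPM per kb and mt-Nd4 at 456 ± 429. mt-Cytb, mt-Nd1, mt-Nd6, mt-Nd5 and mt-Nd2 were then at 639 ± 142, 458 ± 176, 362 ± 92.8, 332 ± 133 and 162 ± 87.3. On that scale mt-Nd4 moved from next to last to the level of mt-Nd1, while without litter 4 it was at 300.0 ± 54.7.

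The make-up of the mRNA counts was alike in most mice and different in litter 4. mt-Co1 gave 46.4% to 59.4% of the mitochondrial mRNA counts in the 12 other mice and 35.4%, 39.6% and 42.7% in F3, F1 and F7. mt-Nd4 gave 2.73% to 4.36% in the 12 other mice and 13.01%, 7.64% and 8.21% in F3, F1 and F7. In neither gene did the litter 4 mice overlap the rest. mt-Cytb was the steadiest, at 14.7% to 19.8% in all 15 mice. mt-Nd6 reached 7.71% in dKO mouse T2 and was between 2.69% and 5.01% in the rest. These shares were looked at by litter after their values were seen, so they are given without a test.

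**Figure D5:**
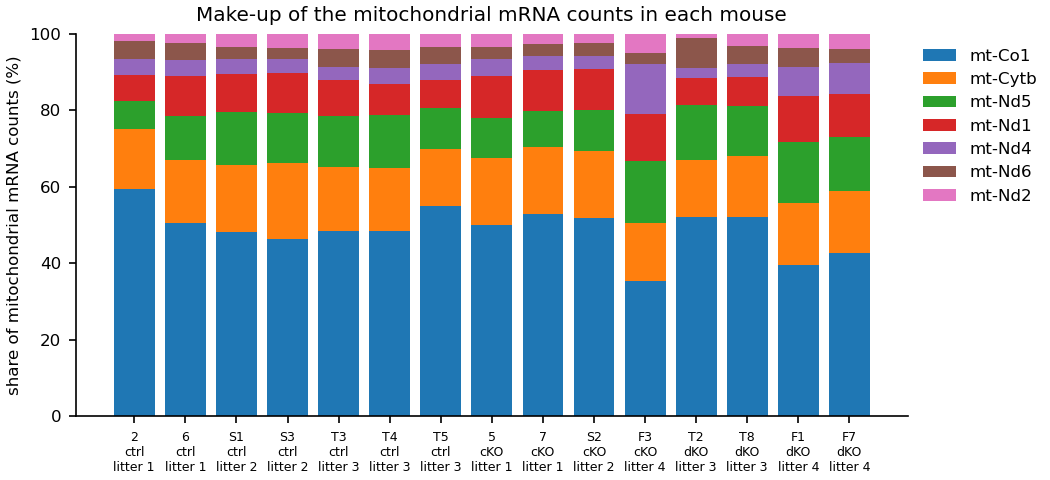
Percent of the mitochondrial mRNA counts on each of the 7 counted genes, for each mouse with its group and litter; bars sum to 100%. In F3, F1 and F7 of litter 4, mt-Co1 takes 35.4% to 42.7% and mt-Nd4 7.64% to 13.01%, against 46.4% to 59.4% and 2.73% to 4.36% in the other 12 mice.

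The rRNAs are the RNA of the small (mt-Rnr1, bases 70 to 1024) and large (mt-Rnr2, bases 1094 to 2675) subunits of the mitochondrial ribosome. Ribosomal RNA was removed with a depletion kit before the libraries were made, so these values are what was left and not levels in the tissue. Together they took from 0.504% of counts in dKO mouse T2 to 3.72% in F3, a 7.38-fold range, against a 1.95-fold range for the mRNAs. mt-Rnr1 was at 682, 2137, 6847, 5863, 1015, 1144 and 1267 CPM in the ctrl mice. In cKO mice 5, 7, S2 and F3 it was at 2727, 2532, 2343 and 17470 CPM, and in dKO mice T2, T8, F1 and F7 at 648, 1112, 10963 and 9755 CPM. The litter 4 mice were the 3 highest, and the ctrl mice of litter 2, S1 and S3, came next.

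mt-Rnr2 varied less between mice, and F3, F1 and ctrl mouse S1 were the highest. mt-Rnr2 was at 4225, 9367, 18635, 15952, 5761, 6006 and 4272 CPM in the ctrl mice, at 11048, 10442, 9433 and 24469 CPM in cKO mice 5, 7, S2 and F3 and at 3965, 6286, 19055 and 16734 CPM in dKO mice T2, T8, F1 and F7. The number of mt-Rnr1 counts per 100 mt-Rnr2 counts went from 16.1 in ctrl mouse 2 to 71.4 in F3. It was 57.5 and 58.3 in F1 and F7 and at most 36.8 in the other mice. For each group the mean was 25.5 ± 8.84 (SD, n = 7) in ctrl, 36.3 ± 23.4 (n = 4) in cKO and 37.5 ± 23.6 (n = 4) in dKO.

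Neither rRNA passed the test. The log2 fold change of mt-Rnr1 was 1.20 (SE 0.52, edgeR FDR = 0.789) in cKO versus ctrl, 1.05 (SE 0.52, FDR = 1) in dKO versus ctrl and 0.17 (SE 0.73, FDR = 1) in cKO versus dKO. That of mt-Rnr2 was 0.58 (SE 0.33), 0.33 (SE 0.35) and 0.28 (SE 0.41), with an FDR of 1 in each. Without F3 mt-Rnr2 was at 0.15 in cKO versus ctrl, and in dKO versus ctrl it was at −0.03 without F1, 0.10 without F7 and −0.84 without litter 4. The exact permutation test of their share of counts gave p = 0.348 for cKO versus ctrl (difference 0.647 percentage points), 0.403 for dKO versus ctrl (0.453) and 0.8286 for cKO versus dKO (0.194). With litter 4 left out, mt-Rnr1 was at −0.11 in cKO versus ctrl and −1.62 in dKO versus ctrl, both with an FDR of 1. In cKO versus dKO mt-Rnr1 was then at 1.5 (FDR = 8.35e-09) and mt-Rnr2 at 0.99 (FDR = 0.00136), in 3 mice of batch 1 against 2 of batch 3. Within batch 3, mt-Rnr1 was at 2.29 in dKO versus ctrl (FDR = 0.00478), where the 2 dKO mice of litter 4 were far above their batch's ctrl mice, T8 was within their range and T2 was below it. Within litter 3 it was at −0.34 (FDR = 1).

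The tRNAs were hardly seen. Of 22, 11 had a count and 6 had at least 10 counts over all mice. Library products were also size-selected, which leaves out short ones, and the part of this step in the low counts was not tested. The tRNAs with the highest mean level per length were those for proline (mt-Tp, bases 15356 to 15422, minus strand), methionine (mt-Tm, bases 3845 to 3913) and leucine (mt-Tl1, bases 2676 to 2750), at 20.6, 15.8 and 8.42 CPM per kb. mt-Tp had 37 counts spread over 13 mice. mt-Tm had 69 counts, of which 53 were in litter 4, with 28 in F3, 10 in F1 and 15 in F7 and at most 6 in any other mouse. In the same 3 mice were 68261 of the 182447 mRNA counts. mt-Tm is shown whole (chrM:3845-3913, plus strand), because it is the tRNA with the most counts.
mt-Tm: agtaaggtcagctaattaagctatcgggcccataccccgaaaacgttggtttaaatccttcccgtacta

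mt-Tm had a log2 fold change of 1.72 in cKO versus ctrl and 1.68 in dKO versus ctrl, both with an edgeR FDR of 1. The other tRNAs had an FDR of 1 wherever they could be fitted.

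Nuclear genes encode the remaining subunits of the same complexes, and none of them passed. Of the nuclear subunits of complexes I to V, 75 of 77 had counts, and 0 passed the FDR threshold in any comparison, with 2, 9 and 4 at an unadjusted p under 0.05, beside the counts over all genes given above. In cKO versus ctrl 42 of the 75 were higher and 33 lower, with a median log2 fold change of 0.02. In dKO versus ctrl 45 were higher and 30 lower, with a median of 0.05, and in cKO versus dKO 34 were higher and 41 lower, with a median of −0.02. Their summed level was 1893 ± 167 CPM in ctrl (SD, n = 7), 1964 ± 97.3 in cKO (n = 4) and 1992 ± 229 in dKO (n = 4). F3, at 2095 CPM, was within the range of ctrl here, although its mitochondrial mRNA share was the highest.

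Single nuclear subunits with the smallest p did not pass either. In complex I, Ndufa6 was at 17.3 ± 5.15 CPM in dKO and 7.70 ± 3.18 in ctrl (log2 0.91, edgeR FDR = 0.579), and Ndufb5 at 22.3 ± 1.73 in cKO and 17.4 ± 4.17 in ctrl (log2 0.42, FDR = 0.852). In complex IV, Cox7a2 was at 5.53 ± 4.51 CPM in dKO and 16.4 ± 11.5 in ctrl (log2 −1.19, FDR = 0.851). In complex V, Atp5o was at 37.5 ± 31.3 CPM in dKO (log2 0.88 above ctrl, FDR = 0.916). In complex II, whose subunits are all nuclear, Sdhb was at 35.4 ± 12.7 CPM in dKO and 25.0 ± 4.94 in ctrl (log2 0.36, FDR = 1), and in complex III Uqcrq was at 10.7 ± 2.21 in cKO and 15.0 ± 5.52 in ctrl (log2 −0.31, FDR = 1). The remaining genes with the smallest p of their complex, Atpif1 in cKO versus ctrl (log2 0.31), Uqcr11 in dKO versus ctrl (−0.37) and Ndufa3 (−0.56), Uqcr10 (−0.42) and Cox5b (−0.52) in cKO versus dKO, each had an edgeR FDR of 1.

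Other nuclear genes act on mitochondrial DNA and RNA. Of 16 genes of mitochondrial DNA transcription and replication, 21 of RNA processing and stability, 75 mitochondrial ribosomal proteins and 8 regulators of mitochondrial biogenesis with counts, 0 passed in any comparison. The median log2 fold changes of these lists lay between −0.06 and 0.08. The members with the smallest p in cKO versus ctrl were Mterf4 (log2 0.52, edgeR FDR = 0.852), Fastkd1 (0.45, FDR = 1), Mrpl30 (0.52, FDR = 0.949) and Nrf1 (−0.12, FDR = 1). In dKO versus ctrl they were Mterf1b (log2 0.93, edgeR FDR = 1), Ptcd3 (−0.20, FDR = 1), Mrpl52 (0.88, FDR = 0.579) and Pprc1 (0.32, FDR = 1). In cKO versus dKO the helicase Twnk (log2 −0.48), Trnt1 (−0.37), Mrpl51 (0.59) and Pprc1 (−0.26) came first, each with an edgeR FDR of 1.

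Of the 19 mitochondrial tRNA synthetases, 1 passed. Lars2, which charges the mitochondrial leucine tRNAs, was higher in cKO versus ctrl (log2 2.18, SE 0.56, edgeR FDR = 0.0413) and in dKO versus ctrl (log2 3.23, SE 0.54, FDR = 1.47e-05). Its level was 58.3 to 153.7 CPM in the 7 ctrl mice. It was at 63.2, 68.3, 57.1 and 1475 CPM in cKO mice 5, 7, S2 and F3 and at 74.6, 66.5, 3042 and 228 CPM in dKO mice T2, T8, F1 and F7. The litter 4 mice were thus the 3 highest. With litter 4 left out Lars2 was at −0.57 (FDR = 0.978) and −0.39 (FDR = 1) in the same comparisons, so the direction turned. With litter as a covariate in the edgeR fit, Lars2 passed as lower in cKO versus ctrl (−0.56, edgeR FDR = 0.046). In dKO versus ctrl it was then at −0.12 and did not pass. DESeq2 gave no adjusted p for Lars2 in either. In cKO versus dKO the synthetase with the smallest p was Iars2, for isoleucine (log2 0.20, FDR = 1). The part of the high rRNA levels of litter 4, given above, in these values was not tested.

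Of the 16 nuclear genes with a copy of a mitochondrial gene of at least 90% identity over 100 bases or more, the most counted was Gm13340, the copy of the whole of mt-Co1 on chromosome 2, with 187 counts. Its counts did not follow depth. They were between 4 and 20 in every mouse, 18 in T3 with 399832 counts in all and 20 in S2 with 8800987. In CPM it was therefore at 2.05 to 42.0 in ctrl, 2.28 to 4.00 in cKO and 1.94 to 14.9 in dKO, and it was lower in cKO versus ctrl (log2 −2.50, SE 0.54, edgeR FDR = 0.0207). When every mouse was thinned to the total of T3 the value was −1.71 with an FDR of 1, and within batch 1 it was −1.35 with an FDR of 1. Thinning also cuts the counts of deeper mice, so it cannot take out the link of this CPM with depth. The gene passed with DESeq2 (−2.64, FDR = 0.0112) and with RLE size factors in edgeR (−2.58, FDR = 0.0184). It did not pass in edgeR with batch (−2.06, FDR = 0.13) or litter (−1.17, FDR = 0.302) as a covariate. mt-Co1, from which Gm13340 differs at 37 bases, did follow depth, from 979 counts in T3 to 17665 in S2. The next copies were Gm13341 (mt-Co2, 12 counts) and Gm4076 (mt-Nd5, 8 counts), both with an FDR of 1 in every comparison. Reads of such copies and of the mitochondrial genes can be exchanged by the alignment, so these values are uncertain.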

How the data were processed

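E15.5 cortex of 15 mice was measured in 16 UMI RNA-seq libraries. The authors removed rRNA, made ClickSeq libraries, trimmed reads with cutadapt 1.13, aligned them to GRCm38/mm10 with STAR 2.5.2a, collapsed UMIs with UMI-tools 0.5.3 and deposited unnormalized counts per gene from HTSeq 0.6.1p1. Libraries S2 and S2b were added as 1 mouse, since the study used 15 mice. The 5 summary lines of each file were left out of totals.

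GENCODE M21 (GRCm38) gave symbols and coordinates, counted from 1, for 51633 genes. The members and gene lists were chosen with earlier results of these data known. Each comparison used the mice of its 2 groups only (edgeR 4.0.16, R 4.3.3, TMM, glmFit, glmLRT, no covariate, FDR by Benjamini-Hochberg over 51912 genes). CPM used TMM over 15 mice, and shares of counts did not. Shares were compared over mice by exact permutation, two-sided. Nuclear copies were found with blastn (BLAST+ 2.17.0). Named genes were all mRNAs and rRNAs, the 3 tRNAs with the highest level per length, nuclear genes that passed or had the smallest p of a list, and the 3 most counted copies. P-values measure the spread between mice. The fit was tested on simulated data with 200 changed genes. DESeq2 1.42.0 and the other alternatives are in the closing section.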

Additional observations from a re-analysis of the deposited data

Results flagged for a closer look

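Of 57 values by group that were looked at for a mouse far from the others of its group, 16 had one. The values come from the same mice and are not independent, so their number cannot be set against chance. In cKO, F3 was the far mouse in 14 of the 16. Its level of mt-Nd1 was 910.8 CPM, of mt-Nd2 383.0, of mt-Co1 2631, of mt-Nd4 966.2, of mt-Nd5 1207, of mt-Cytb 1128, of mt-Rnr1 17470 and of mt-Rnr2 24470. The nearest cKO mouse was at 458, 144, 2083, 182, 443, 729, 2727 and 11048 CPM. F3 was also far in its share of counts in the mitochondrial mRNAs (0.659%) and rRNAs (3.72%) and in mt-Rnr1 counts per 100 mt-Rnr2 counts (71.4). Of the mitochondrial mRNA counts, 13.01% were on mt-Nd4, 35.4% on mt-Co1 and 15.2% on mt-Cytb in F3, where mt-Nd4 was far above and mt-Co1 and mt-Cytb far below the other cKO mice. In ctrl, T4 was far above the others in mt-Nd4 (194.8 CPM, next 162), and in dKO, T2 was far below in mt-Nd5 (460.8 CPM, next 608).

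The cKO versus ctrl difference in mt-Nd4 itself differed between the sexes, by 2.25 on the log2 scale (male minus female, interaction term of the edgeR likelihood ratio test, FDR = 0.0131). F3 is 1 of 2 male cKO mice. Of 55 such interactions over the mitochondrial genes and comparisons, 1 passed and 11 had an unadjusted p under 0.05.

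Reads on no annotated gene, which the comparisons do not use, were 7.83% of the entries listed for a dKO mouse on average, above the highest ctrl mouse (6.88%). They were 7.88% and 10.9% in F1 and F7 and 6.54% and 6.06% in T2 and T8.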

How the results depend on the processing

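The number of mitochondrial genes that passed changed under several alternatives. With edgeR's quasi-likelihood test on all genes it was 4 in cKO versus ctrl (mt-Rnr1, mt-Rnr2, mt-Nd1, mt-Nd4), 2 in dKO versus ctrl (mt-Rnr1, mt-Nd4) and 0 in cKO versus dKO. In that fit the prior degrees of freedom of the spread were infinite in the first 2 comparisons and 107 in the last. On genes passing the filter on low counts, an alternative chosen after seeing the data, they were 9.01, 10.4 and 6.3, and 0 genes passed in each. In dKO versus ctrl 1 gene (mt-Rnr1) passed within batch 3. In cKO versus dKO 2 (mt-Nd4, mt-Nd5) passed with batch as a covariate, 4 with litter as a covariate, 1 (mt-Nd4, with F3 the single cKO mouse, assumed to vary like the dKO mice) within batch 3 and 3 (mt-Rnr1, mt-Rnr2, mt-Nd6) with litter 4 left out, which was also added after seeing the data. Leaving out 1 mouse at a time gave 0 to 2 genes in cKO versus ctrl (mt-Nd4 without 7, mt-Nd1 and mt-Nd4 without S2), 0 to 1 in dKO versus ctrl (mt-Nd4 without T2) and 0 in cKO versus dKO.

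The median log2 fold change of the 7 counted mRNAs was −0.10 in cKO versus ctrl without F3, and −0.01, −0.06 and −0.15 in dKO versus ctrl without F1, without F7 and without litter 4. In cKO versus dKO it was 1.08 with batch as a covariate, 0.95 with litter as a covariate and 1.08 within batch 3, and −0.16 (without F3) to 0.43 (without T8) when 1 mouse was left out. The difference in the mRNA share turned in sign with litter 4 left out, at −0.0322 percentage points in cKO versus ctrl, 0.00334 in dKO versus ctrl and −0.0355 in cKO versus dKO, and in dKO versus ctrl it was 0.00704 against wild-type ctrl mice only. With 1 mouse left out it was −0.0322 (F3) to 0.0630 (7), −0.0386 (T8) to 0.0100 (T2) and −0.0223 (F3) to 0.0755 (T8). Of 684 values for single mRNAs and rRNAs under all alternatives, 612 kept their direction and their side of the threshold, 51 changed direction and 21 passed the threshold, with 2 DESeq2 values that have no adjusted p counted among the first. The cause of these changes was not tested.

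Over all genes the number that passed was 13 (batch 1 only) to 352 (quasi-likelihood) in cKO versus ctrl, 0 (litter 4 left out, with 1022 at an unadjusted p under 0.05) to 113 (quasi-likelihood) in dKO versus ctrl and 1 (within batch 3, and thinned) to 184 (quasi-likelihood) in cKO versus dKO, and DESeq2 called 137, 9 and 7. With DESeq2 the median of nuclear genes moved to −0.20 in cKO versus ctrl and −0.17 in cKO versus dKO. Mice of different groups share litters, and the fits with litter as a covariate are the ones that use this. In cKO versus ctrl that fit put mt-Nd4 at −0.06 and mt-Rnr1 at 0.04. In dKO versus ctrl it put them at −0.40 and −0.35, and no mitochondrial gene passed in either comparison. For any gene at a count of 0, tRNA or mRNA, the depth of a single mouse allows 0.341 to 7.50 CPM.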
